A study of Arabidopsis thaliana with 27 samples.

Results

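Late embryogenesis abundant (LEA) protein genes of Arabidopsis thaliana, dehydrins included, were followed through imbibed seeds of 3 genotypes. The 52 genes were taken by family name, with no cut on their values, from the 33612 genes of the deposited count table. Earlier results of these data were known when they were chosen. Of the 52, 45 passed the filter on low counts. The study asks about seed germination while phytochrome B, a red light photoreceptor, is active. Poly(A) RNA was sequenced from whole seeds of hid1, a mutant that lacks transcripts of the noncoding RNA HID1, of phyB, a mutant of phytochrome B itself, and of the wild type Col-0 (WT).

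Seeds of each genotype were sampled in 3 groups, at 12, 24 and 48 h of darkness, which made 9 groups of 3 biological replicates and 27 libraries. All seeds shared one history: the parent plants grew together, harvest fell on a single day, and the seeds dried for about 2 months. Every seed lot then had 1 h of white light during plating and a red pulse of 5 min at 20 μmol m-2 s-1, which switches phytochrome B on in plants that have it. The labels name no allele for hid1 or phyB. They also do not say whether replicates came from separate plants, so p-values measure only the spread between these samples, which may be technical.

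LEA proteins are small, very hydrophilic proteins that accumulate as embryos mature and dry, and that help cells survive the loss of water. Many of their genes answer to abscisic acid (ABA) through basic leucine zipper factors such as ABI5, and to the seed maturation factors ABI3 and FUS3. Some family members, among them several acidic dehydrins, are better known from vegetative tissue under cold or drought. Transcripts of the maturation programme are normally lost as seeds germinate.

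Libraries held 14750212 to 26293148 counts. Transcripts of HID1 were nearly absent from hid1, at 0 or 1 count in every library, against 171 to 361 counts in phyB and 243 to 500 counts in WT. PHYB transcripts stayed present in phyB, at 907 to 1684 counts, against 1946 to 2721 counts in WT, and the labels do not say what lesion phyB carries. Seed storage protein and oil body genes, which mark the tissue, summed to between 6565 and 357723 CPM (counts per 1000000 of a scaled library) over all libraries. The phyB libraries labelled 12 h stood apart from the others of that time: mitochondrial transcripts made up 0.0178 to 0.0202% of their counts, against 0.0764 to 0.116% in hid1 and 0.128 to 0.16% in WT at 12 h. In the phyB libraries labelled 24 h the share was 0.0195 to 0.0246%, against 0.0151 to 0.0234% in hid1 and 0.0172 to 0.028% in WT. Results for phyB at 12 and 24 h rest on these labels, and whether the labels hold was not tested.

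Upstream sequences of 6 members with unlike courses in WT are shown as examples. EM1, EM6 and AT3G02480 were lost between 24 and 48 h, HIRD11 and ERD10 rose, and COR47 did not pass the test. Each is the stretch of 250 bases before the annotated gene start, from RefSeq on TAIR10.1, read 5′ to 3′ toward the gene. Capitals mark ACGTG, the core of the ABA-responsive element, on either strand (CACGT when read from the other strand), and a CACGTG palindrome holds both and counts as 1 site. The windows are chr3:19214472-19214721 (+ strand) for EM1, chr2:16780369-16780618 (- strand) for EM6, chr3:511970-512219 (+ strand) for AT3G02480, chr1:20310851-20311100 (- strand) for HIRD11, chr1:7086874-7087123 (- strand) for COR47 and chr1:7089607-7089856 (- strand) for ERD10.
EM1: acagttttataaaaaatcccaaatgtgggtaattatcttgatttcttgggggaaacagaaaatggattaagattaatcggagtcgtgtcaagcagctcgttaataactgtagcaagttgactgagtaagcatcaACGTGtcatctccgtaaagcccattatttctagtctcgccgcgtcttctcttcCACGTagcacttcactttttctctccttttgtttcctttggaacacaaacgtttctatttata
EM6: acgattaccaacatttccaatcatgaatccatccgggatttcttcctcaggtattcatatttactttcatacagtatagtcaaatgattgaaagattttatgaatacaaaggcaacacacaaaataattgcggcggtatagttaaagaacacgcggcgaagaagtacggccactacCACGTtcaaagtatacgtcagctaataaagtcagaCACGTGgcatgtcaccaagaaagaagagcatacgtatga
AT3G02480: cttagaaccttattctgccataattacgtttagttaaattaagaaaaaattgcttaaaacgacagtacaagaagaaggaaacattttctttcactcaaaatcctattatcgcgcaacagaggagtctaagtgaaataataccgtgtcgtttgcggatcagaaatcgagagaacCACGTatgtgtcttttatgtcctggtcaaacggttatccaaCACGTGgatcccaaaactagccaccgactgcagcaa
HIRD11: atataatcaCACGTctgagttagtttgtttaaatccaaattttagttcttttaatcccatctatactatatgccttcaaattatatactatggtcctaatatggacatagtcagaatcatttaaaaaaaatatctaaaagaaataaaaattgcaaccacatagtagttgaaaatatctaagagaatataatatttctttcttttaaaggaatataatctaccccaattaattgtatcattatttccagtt
COR47: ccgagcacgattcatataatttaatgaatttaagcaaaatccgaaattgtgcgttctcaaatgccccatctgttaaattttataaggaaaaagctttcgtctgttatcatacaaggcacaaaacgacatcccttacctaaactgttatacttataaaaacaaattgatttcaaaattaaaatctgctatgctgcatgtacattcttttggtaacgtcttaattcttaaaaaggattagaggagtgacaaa
ERD10: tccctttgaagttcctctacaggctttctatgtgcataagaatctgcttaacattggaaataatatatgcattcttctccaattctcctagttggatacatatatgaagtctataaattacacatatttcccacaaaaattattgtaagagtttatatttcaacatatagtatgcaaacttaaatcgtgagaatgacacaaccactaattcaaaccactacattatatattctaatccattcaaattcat
The windows of EM1, EM6 and AT3G02480 held 2 sites each, that of HIRD11 held 1, and those of COR47 and ERD10 held 0. The 6 examples do not stand for all members: ECP31 fell in WT with 0 sites, and AT4G38410 rose with 2.

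Over the family, 37 of 52 windows (71.2%) held ACGTG at least once, against 22.9% of the windows of all 27443 protein-coding genes. Among the 35 members that fell in WT between 24 and 48 h, 30 windows (85.7%) held it, and 60% held at least 2 sites. Among the 8 members that rose, 5 windows (62.5%) held it, and 1 (12.5%) held at least 2 sites. The full palindrome CACGTG, which contains ACGTG, was found in 57.1% of the windows of falling members, in 0 of the 8 windows of rising members, and in 6.49% of all windows. CCGAC, the core of the drought- and cold-responsive element, stood in 36.5% of the members' windows and 12% of all windows, searched on both strands like the others. CATGCA, the core of the RY element of seed genes, stood in 17.3% of the members' windows and 8.43% of all windows. These matches describe letters in the windows: M17 and ECP31, for example, fell in WT and have no ACGTG there.

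At 48 h LEA genes took a larger share of all counts in both mutants than in WT. It was 2.93, 2.91 and 2.41% in the hid1 libraries and 6.43, 5.56 and 5.6% in the phyB libraries at 48 h, against 0.41, 0.519 and 0.417% in the WT libraries. Every mutant library was above every WT library. In WT the mean share was 4.35 ± 0.03% at 12 h, 1.87 ± 0.145% at 24 h and 0.449 ± 0.0609% at 48 h (SD, n = 3 at each time). In hid1 it was 3.55 ± 0.0977%, 2.48 ± 0.0762% and 2.75 ± 0.291%, and in phyB 3.23 ± 0.0538%, 5.84 ± 0.16% and 5.86 ± 0.491% at the same times. The phyB mean at 12 h was the lowest of the 3 genotypes, and those at 24 and 48 h the highest. The mean at 24 h was above that at 12 h in phyB and below it in hid1 and WT. These are shares of raw totals, and scaled CPM read differently in phyB. There the members summed to means of 59599 CPM at 24 h and 83908 CPM at 48 h. In hid1 the same sums were 22452 and 24699 CPM, and in WT 16326 and 4009 CPM. No test was run on these shares or sums. In whole seeds, a smaller number of cells of one type and less RNA per cell cannot be told apart.

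**Figure D1:**
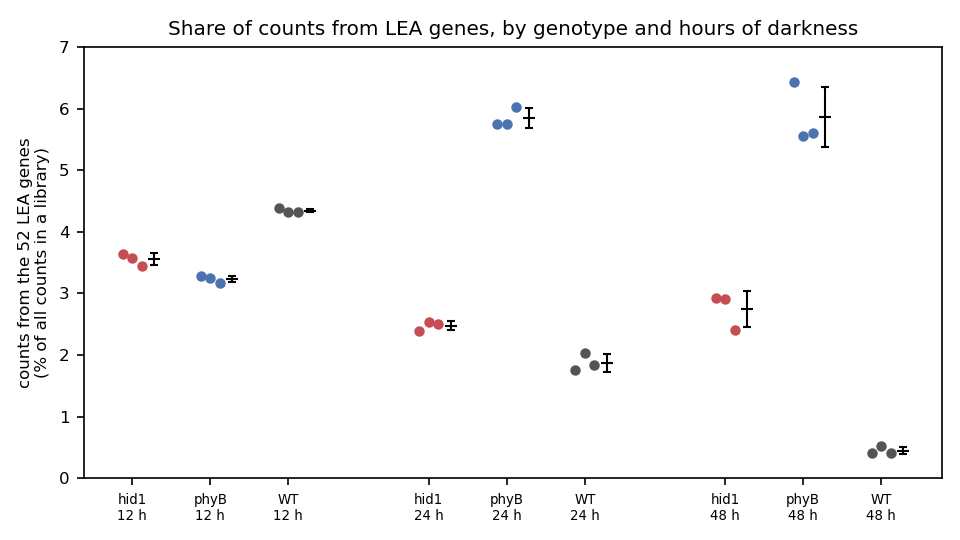
Share of all counts that came from the 52 LEA genes, in percent of a library's counts (y axis), in hid1, phyB and WT at 12, 24 and 48 h of darkness (x axis). Points are libraries and bars beside them the mean ± SD of 3. At 48 h the phyB libraries sit near 5.86%, the hid1 libraries near 2.75% and the WT libraries near 0.449%.

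The make-up of the family's counts by protein class, given here without a test, was as follows at 48 h. The LEA_4 class, many of whose proteins fold into helices on drying, gave 43.7 ± 1.08% of the family's counts in hid1 and 24.7 ± 1.42% in phyB, against 15.3 ± 2.86% in WT (SD, n = 3 each). Dehydrins gave 12.4 ± 0.775% in hid1 and 16 ± 0.402% in phyB, against 34.9 ± 3.65% in WT. The AtM class, M17 and M10, gave 10.5 ± 0.385% in hid1 and 28.4 ± 1.39% in phyB, against 14.2 ± 2.06% in WT. Levels of different genes can be set side by side only per length, and the authors' deposited table of FPKM allows that: FPKM are fragments scaled to transcript length and library depth. In the authors' deposited table the leading members at 48 h were AT2G35300, AT3G02480 and AT3G15670 in hid1, with 3809.6, 3685 and 2689 FPKM. In phyB they were M17, RAB18 and EM6 in the authors' deposited table, with 15555, 8234 and 6368 FPKM. In WT at 48 h the authors' deposited table was led by HIRD11, M17 and SAG21, with 1078, 557 and 462 FPKM. HIRD11, a histidine-rich dehydrin that binds metal ions, led in WT, where it had 12.9 FPKM at 12 h in the authors' deposited table.

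**Figure D2:**
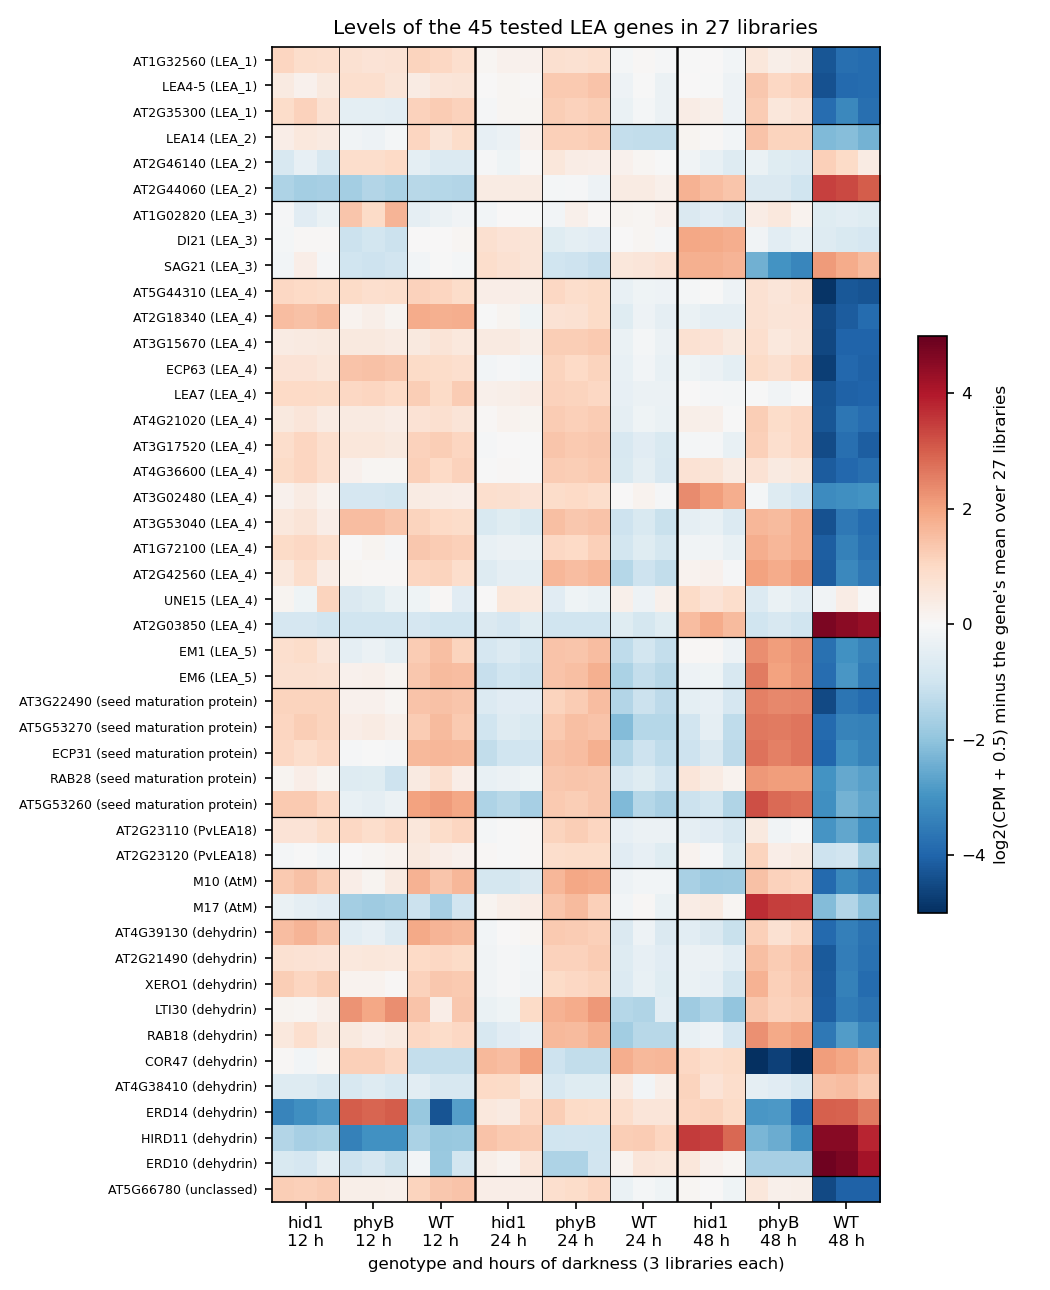
Levels of the 45 tested LEA genes (rows, grouped by protein class) in the 27 libraries (columns, hid1, phyB and WT within each time), as log2(CPM + 0.5) minus the gene's mean over all libraries. Colours saturate at 5 log2 units. The WT columns at 48 h are blue for most rows and red for a block of dehydrins and a few other genes.

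In WT most of the family fell as darkness went on, and a minority rose. A member is said to have risen or fallen where edgeR's quasi-likelihood test gave a Benjamini-Hochberg adjusted p under 0.05 over all 20465 genes tested. At 48 h relative to 24 h, 35 of 45 members fell and 8 rose in WT, with a median log2 difference of -2.56, while 38% of all genes fell and 44.2% rose (82.3% in either direction), with a median of 0.07. At 24 h relative to 12 h, 32 had fallen and 10 had risen (median -1.35), against 32.4% and 33.1% of all genes (65.5% in either direction). The members that rose after 24 h were the dehydrins ERD10, ERD14, HIRD11 and AT4G38410, the LEA_2 genes AT2G44060 and AT2G46140, the LEA_3 gene SAG21 and the LEA_4 gene AT2G03850. SAG21 is known from leaf senescence and oxidative stress, and ERD10 and ERD14 from early responses to dehydration. COR47 and UNE15 did not pass the test. For EM1 the WT libraries held 3174, 3791 and 2866 CPM at 12 h, 550.2, 692 and 587 CPM at 24 h and 99, 164 and 132 CPM at 48 h. For RAB18 they held 5184, 4713 and 5084 CPM at 12 h, 749, 950.1 and 953 CPM at 24 h and 207, 365 and 263 CPM at 48 h. For HIRD11 they held 11.7, 9.28 and 9.76 CPM at 12 h, 85, 87.6 and 77 CPM at 24 h and 863, 848 and 515 CPM at 48 h. The first pair fell at each step and HIRD11 rose at each step, with no overlap between times.

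In hid1 most of the family stood above WT at 48 h. Relative to WT, 35 of 45 members were higher in hid1 and 8 lower, with a median log2 difference of 3.14. Of all genes tested, 36.3% were higher and 43% lower (79.2% in either direction), with a median of -0.06. In this and the later comparisons between genotypes, the members with the largest differences were picked among those whose replicates did not overlap. Their separation is therefore part of the choice.

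Among the LEA_4 genes, 13 of 14 tested were higher in hid1 and 1, AT2G03850, was lower (class median 4.0). AT3G02480, a small LEA_4 protein gene, had 1850.4, 1552 and 1264 CPM in the hid1 libraries at 48 h, against 40.7, 42.3 and 45.3 CPM in the WT libraries. The groups lay far apart, and at 36.4-fold this was the largest rise of the family in hid1. Its log2 difference was 5.18 ± 0.15 (SE; adjusted p = 4.06e-21, edgeR's quasi-likelihood test with Benjamini-Hochberg adjustment). AT3G15670, of the same class, had 2792, 2616 and 2285 CPM in hid1 and 69.5, 101 and 100.4 CPM in WT, a log2 difference of 4.83 ± 0.12. ECP63, which resembles a protein of carrot embryogenic cells, had 681, 658 and 574 CPM in hid1 and 30.3, 52 and 47.7 CPM in WT, a log2 difference of 3.88 ± 0.13. In both genes the hid1 libraries were all above the WT libraries. AT4G36600 had 178, 167 and 144 CPM in hid1 and 5.6, 6.56 and 7.4 CPM in WT, a log2 difference of 4.65 ± 0.11. AT5G44310 had 878, 924 and 788 CPM in hid1 and 31.1, 50 and 47.4 CPM in WT, a log2 difference of 4.33 ± 0.12. Neither of these overlapped WT, as the choice required.

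All tested genes of the LEA_5, seed maturation protein, LEA_1 and AtM classes were higher in hid1. EM1 and EM6, the LEA_5 genes related to the Em protein of wheat embryos, were both higher. EM1 had 1390.3, 1389 and 1120.2 CPM in hid1 and 99, 164 and 132 CPM in WT at 48 h, a log2 difference of 3.30 ± 0.15. EM6 had 995, 1001 and 675 CPM in hid1 and 82.4, 155 and 103 CPM in WT, a log2 difference of 2.97 ± 0.18 (adjusted p = 2.24e-14, edgeR's quasi-likelihood test with Benjamini-Hochberg adjustment). Neither gene's groups overlapped. All 5 tested genes of the seed maturation protein class were higher, with a median of 3.14. Of these, ECP31 had 337, 412 and 277 CPM in hid1 and 44.2, 81.3 and 68.4 CPM in WT, a log2 difference of 2.40 ± 0.16. The 3 LEA_1 genes were higher with a median of 3.92, and LEA4-5, which protects seedlings under water deficit, was among them. Of the AtM pair, M17 had 2593, 2739 and 2196 CPM in hid1 and 444, 739 and 480.2 CPM in WT, a log2 difference of 2.18 ± 0.17. Its neighbour M10 had 80.4, 69.6 and 72.3 CPM in hid1 and 16.3, 27 and 21.1 CPM in WT, a log2 difference of 1.78 ± 0.14. Within M17, 42% of the exonic stretches of 100 bases occur more than once, all inside the gene, and the sources do not state how reads matching several places were handled.

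The dehydrins split evenly in hid1, 5 higher and 5 lower of 10 tested, against 36.3% and 43% of all genes. A split of this kind is thus not particular to dehydrins. RAB18, the dehydrin long used as an ABA-responsive marker, had 1949, 2104 and 1383 CPM in hid1 and 207, 365 and 263 CPM in WT at 48 h, a log2 difference of 2.70 ± 0.17. XERO1, LTI30, AT2G21490 and AT4G39130 were higher as well, by 3.26, 2.46, 3.43 and 3.51 on the log2 scale. ERD10 had 2.16, 1.6 and 1.45 CPM in hid1 and 53, 47.4 and 31.6 CPM in WT, a log2 difference of -4.65 ± 0.23. ERD14 had 40.1, 40.8 and 36.8 CPM in hid1 and 153, 149 and 116 CPM in WT, a log2 difference of -1.83 ± 0.17. For both acidic dehydrins all hid1 libraries lay below all WT libraries. HIRD11 had 408, 395 and 265 CPM in hid1 and 863, 848 and 515 CPM in WT, a log2 difference of -1.06 ± 0.14. COR47, a cold-regulated dehydrin next to ERD10 on the chromosome, had 63.9, 58.4 and 61.3 CPM in hid1 and 133, 121 and 98.2 CPM in WT, a log2 difference of -0.94 ± 0.10. The fifth, AT4G38410, was lower, with a log2 difference of -0.74, and this call was lost without WT replicate 2 (-0.66) or without hid1 replicate 2 (-0.59).

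Outside the dehydrins, the genes lower in hid1 at 48 h were AT2G03850, AT2G44060 and AT2G46140. AT2G03850 had 2.42, 3.11 and 2.44 CPM in hid1 and 25.4, 22 and 19.8 CPM in WT, a log2 difference of -3.08 ± 0.15. AT2G44060 had 82.5, 72.5 and 65.2 CPM in hid1 and 271, 249 and 207 CPM in WT, a log2 difference of -1.72 ± 0.08. In each the groups did not overlap. SAG21, at 273, 278 and 259 CPM in hid1 and 353, 291 and 238 CPM in WT, did not pass the test (log2 difference -0.12 ± 0.12). LEA14, an atypical member of the LEA_2 class, and DI21, a drought-induced gene of the LEA_3 class, were higher in hid1, by 2.28 and 2.64 on the log2 scale.

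**Figure D3:**
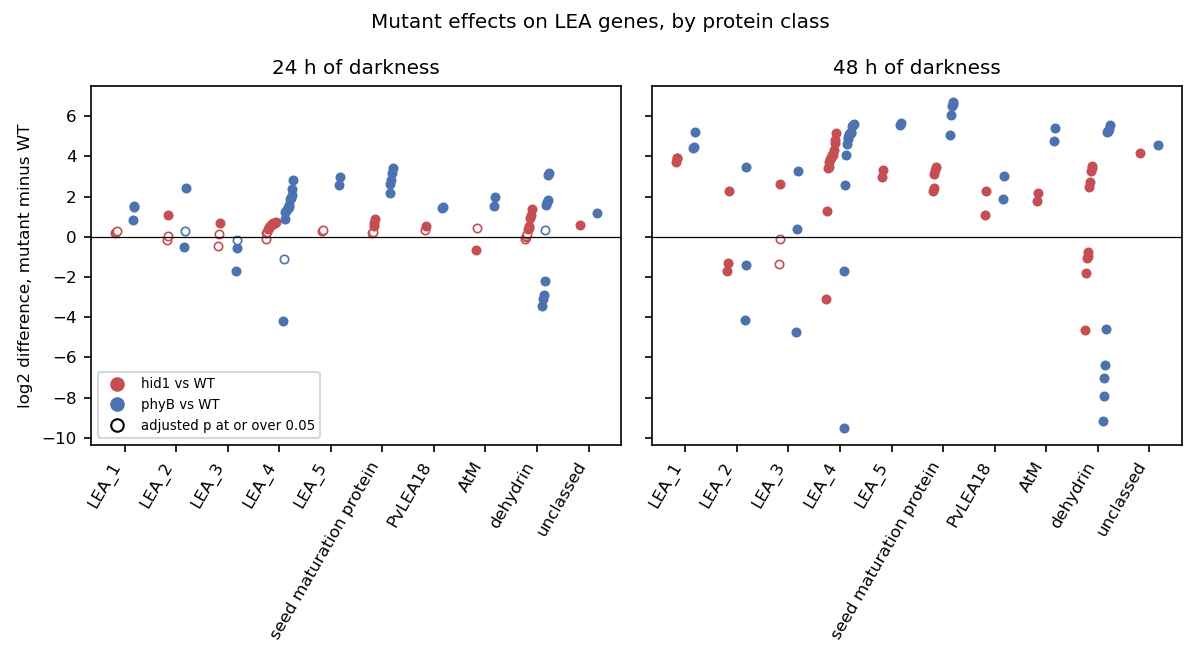
Log2 difference of each tested LEA gene (points) by protein class (x axis), for hid1 minus WT and phyB minus WT at 24 h (left) and 48 h (right). Open points have an adjusted p of 0.05 or more. At 48 h the points lie above 0 in most classes, and the dehydrins form 2 separate clouds on either side of 0.

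All 45 tested members differed between phyB and WT at 48 h: 35 of 45 members were higher in phyB than in WT and 10 lower, with a median log2 difference of 4.86. Of all genes tested, 40% were higher and 49.4% lower (89.4% in either direction), with a median of -0.24, which becomes -0.92 when libraries are scaled by total counts. The differences below stand relative to that shift.

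The largest rises in phyB belonged to 4 genes of the seed maturation protein class, of which all 5 tested rose (median 6.5). The 14 tested LEA_4 genes gave 12 higher and 2 lower (median 5.05). The 10 dehydrins gave 5 higher and 5 lower, near the 40% and 49.4% of all genes. AT5G53270 had 111, 110.3 and 114 CPM in phyB and 0.718, 1.31 and 1.22 CPM in WT, a log2 difference of 6.69 ± 0.19. AT5G53260, its tandem neighbour, had 55, 41.8 and 39.4 CPM in phyB and 0.215, 0.656 and 0.497 CPM in WT, a log2 difference of 6.62 ± 0.20. ECP31 had 4582, 3987 and 4367 CPM in phyB and 44.2, 81.3 and 68.4 CPM in WT, a log2 difference of 6.06 ± 0.18 (adjusted p = 7.61e-22, edgeR's quasi-likelihood test with Benjamini-Hochberg adjustment). AT3G22490, its neighbour, had 759.8, 704 and 731 CPM in phyB and 5.42, 10.1 and 8.8 CPM in WT, a log2 difference of 6.50 ± 0.16. Reads of this gene and of the overlapping antisense gene AT3G22480 cannot be told apart without strand. For these 4 genes phyB lay above WT in every library. M17 had 26033, 22144 and 21589.6 CPM in phyB and 444, 739 and 480.2 CPM in WT, a log2 difference of 5.39 ± 0.20. Without M17 the family's share of counts in phyB at 48 h would be 4.24%. EM1 had 6626, 5572 and 6243 CPM in phyB and 99, 164 and 132 CPM in WT, a log2 difference of 5.55 ± 0.17. EM6 had 7027, 4766 and 5423 CPM in phyB and 82.4, 155 and 103 CPM in WT, a log2 difference of 5.66 ± 0.20. RAB18 had 12086, 9282 and 10275 CPM in phyB and 207, 365 and 263 CPM in WT, a log2 difference of 5.24 ± 0.19. These 3 genes separated phyB from WT completely. M10 had 697, 551 and 521 CPM in phyB and 16.3, 27 and 21.1 CPM in WT, a log2 difference of 4.78 ± 0.15. ECP63 had 1564, 1409 and 1624 CPM in phyB and 30.3, 52 and 47.7 CPM in WT, a log2 difference of 5.14 ± 0.14.

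The 10 members lower in phyB at 48 h were 5 dehydrins, SAG21, the LEA_2 genes AT2G44060 and AT2G46140, and the LEA_4 genes AT2G03850 and UNE15. COR47 had 0.479, 0.753 and 0.209 CPM in phyB and 133, 121 and 98.2 CPM in WT, a log2 difference of -7.94 ± 0.21 (adjusted p = 4.4e-23, edgeR's quasi-likelihood test with Benjamini-Hochberg adjustment). HIRD11 had 6.97, 6.02 and 3.9 CPM in phyB and 863, 848 and 515 CPM in WT, a log2 difference of -7.04 ± 0.21. ERD14 had 2.05, 2.11 and 0.836 CPM in phyB and 153, 149 and 116 CPM in WT, a log2 difference of -6.39 ± 0.28. None of these groups overlapped. ERD10 had only 3 counts over the phyB libraries, against 3546 over the WT libraries, a ratio of 633 with a 95% counting interval of 216 to 3070. AT2G03850 had 1 count over the phyB libraries, against 1784 over the WT libraries, a ratio of 955 with an interval of 171 to 37700. SAG21 had 14.8, 9.79 and 7.94 CPM in phyB and 353, 291 and 238 CPM in WT, a log2 difference of -4.76 ± 0.16. AT2G44060 and AT2G46140 had log2 differences of -4.12 and -1.42. AT4G38410 rests on 3 counts over the phyB libraries and 148 over the WT libraries. UNE15, also poorly counted, had a log2 difference of -1.71, and lost its call without WT replicate 2 (-1.30), phyB replicate 1 (-1.38) or phyB replicate 3 (-1.70). DI21 was higher in phyB by 0.39 with the scaling used here and lower, at -0.29, with total counts.

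**Figure D4:**
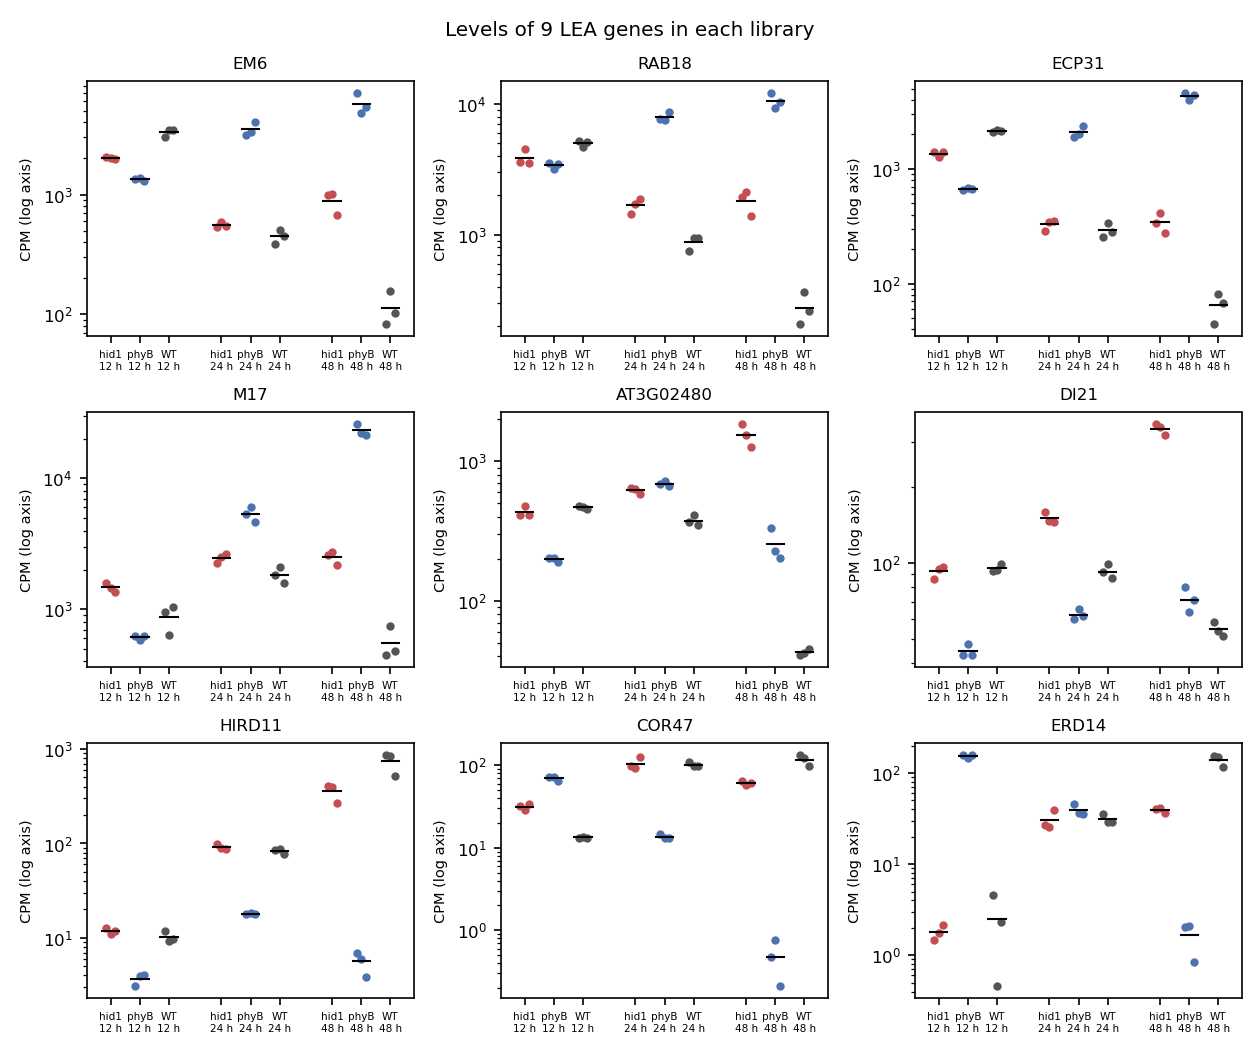
CPM of 9 LEA genes on a log axis in each library of hid1, phyB and WT at 12, 24 and 48 h, with group means marked. EM6, RAB18, ECP31 and M17 are lowest in WT at 48 h, AT3G02480 and DI21 are highest in hid1 at 48 h, and HIRD11, COR47 and ERD14 are lowest or nearly lowest in phyB at 48 h.

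Set directly against phyB, hid1 held less of most maturation transcripts and more of several dehydrins. At 48 h 11 members were higher in hid1 than in phyB and 30 lower, with a median log2 difference of -1.11. Of all genes, 41% were higher in hid1 and 37.9% lower (78.9% in either direction), with a median of 0.06. With total-count scaling the member split became 16 higher and 23 lower, and the median of all genes 0.73. COR47 had 63.9, 58.4 and 61.3 CPM in hid1 and 0.479, 0.753 and 0.209 CPM in phyB, a log2 difference of 6.99 ± 0.22. HIRD11, SAG21 and ERD14, whose values per library appear above, were higher in hid1 by 5.98 ± 0.20, 4.64 ± 0.16 and 4.56 ± 0.30. AT3G02480, unlike the other LEA_4 genes that passed apart from AT2G03850 and UNE15, was also higher: it had 1850.4, 1552 and 1264 CPM in hid1 and 336, 229.6 and 204 CPM in phyB, a log2 difference of 2.60 ± 0.13. DI21 was higher too, with 354, 344 and 321 CPM in hid1 and 79.8, 63.6 and 71 CPM in phyB, a log2 difference of 2.25 ± 0.07. Both genes separated the 2 mutants completely. The lowest differences among well-counted genes belonged to AT5G53260, ECP31, AT5G53270 and M17, at -4.36 ± 0.16, -3.66 ± 0.16, -3.55 ± 0.14 and -3.21 ± 0.18. AT3G15670, AT4G36600, LEA7 and AT2G46140 did not pass the test, and their log2 differences were -0.03 ± 0.11, 0.02 ± 0.09, 0.04 ± 0.08 and 0.14 ± 0.15.

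At 24 h RAB18, LTI30, LEA14 and AT3G02480 were among the members higher in hid1. Of 45 members, 23 were higher in hid1 than in WT and 1 lower, with a median log2 difference of 0.42 at 24 h, against 8.46% and 6.87% of all genes (15.3% in either direction). The 1 member that was lower at 24 h was M10, with 134, 134 and 149 CPM in hid1 and 209, 227 and 229 CPM in WT. Of the 23 that were higher at 24 h, 22 were also higher at 48 h, and 1, AT4G38410, was lower at 48 h. Such joint calls were not counted over all genes, and 35 of the 45 members were higher in hid1 at 48 h in any case. The 24 h call of AT4G38410 was lost under scaling by total counts, no filter or DESeq2. It was also lost without the phyB libraries, WT replicate 2 or 3 or hid1 replicate 1 or 2 (log2 0.76 to 1.13 in all these). Among the 22, XERO1 lost its 24 h call under scaling by total counts and without the phyB libraries. Leaving out WT replicate 1 or 3 or any hid1 replicate also removed it (log2 0.34 to 0.43 in all these). AT2G23120 lost its 24 h call when any of the same single libraries was left out (log2 0.52 to 0.58). LTI30, a low temperature-induced dehydrin, had 15.5, 16.6 and 38 CPM in hid1 and 6.83, 6.63 and 13.5 CPM in WT, a log2 difference of 1.38 ± 0.30. LEA14 had 56.6, 62.8 and 88.3 CPM in hid1 and 33, 32.4 and 32.2 CPM in WT, a log2 difference of 1.09 ± 0.12. In both the groups did not overlap, and hid1 replicate 3 was the highest library. AT3G02480 had 644, 633 and 585 CPM in hid1 and 365, 413 and 349.9 CPM in WT, a log2 difference of 0.72 ± 0.12. RAB18 had 1448, 1709 and 1876 CPM in hid1 and 749, 950.1 and 953 CPM in WT, a log2 difference of 0.92 ± 0.16. EM1, EM6, ECP31, ECP63 and M17 did not pass the test at 24 h, with log2 differences of 0.29, 0.32, 0.17, 0.18 and 0.42. When the phyB libraries of 12 and 24 h were left out of the fit, an alternative chosen after seeing the data, 20 members were higher and 1 lower.

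In phyB at 24 h, 33 members were higher than in WT and 8 lower, with a median log2 difference of 1.48, against 31.8% and 34.6% of all genes (66.4% in either direction). AT5G53260 and RAB18 had the largest rises, 3.42 ± 0.20 and 3.17 ± 0.17 on the log2 scale. AT5G53260 had 14.2, 13.6 and 14.8 CPM in phyB and 0.786, 1.71 and 1.45 CPM in WT. RAB18 had 7679, 7568 and 8604 CPM in phyB and 749, 950.1 and 953 CPM in WT. Of the well-counted genes that fell, COR47 had 14.8, 13.1 and 13 CPM in phyB and 111, 97.1 and 99.1 CPM in WT, a log2 difference of -2.91 ± 0.12. HIRD11 had 17.8, 18.5 and 17.7 CPM in phyB and 85, 87.6 and 77 CPM in WT, a log2 difference of -2.21 ± 0.17. All of these groups lay apart. AT5G53270 had 44, 50.7 and 48.8 CPM in phyB and 3.54, 6.3 and 6.3 CPM in WT, a log2 difference of 3.15 ± 0.16. LTI30 had 65.8, 72.6 and 88.5 CPM in phyB and 6.83, 6.63 and 13.5 CPM in WT, a log2 difference of 3.08 ± 0.28. Both were higher in every phyB library. SAG21 had 40.4, 38.6 and 36 CPM in phyB and 119.9, 121 and 133 CPM in WT, a log2 difference of -1.70 ± 0.13. DI21 had 59.7, 65.6 and 61.4 CPM in phyB and 91.5, 98.4 and 87 CPM in WT, a log2 difference of -0.57 ± 0.07. These 2 LEA_3 genes were lower in every phyB library. Between the mutants at 24 h, 9 members were higher in hid1 than in phyB and 33 lower, with a median of -1.17, against 34.3% and 31.5% of all genes (65.8% in either direction). The members described next were picked for the size of their difference among those whose replicates did not overlap, so their separation is part of the choice. COR47 had 97, 91.9 and 127 CPM in hid1 and 14.8, 13.1 and 13 CPM in phyB, a log2 difference of 2.95 ± 0.12. HIRD11 had 98.1, 89.8 and 88 CPM in hid1 and 17.8, 18.5 and 17.7 CPM in phyB, a log2 difference of 2.35 ± 0.17. Both dehydrins were higher in hid1. SAG21 had 148, 136 and 125 CPM in hid1 and 40.4, 38.6 and 36 CPM in phyB, a log2 difference of 1.83 ± 0.13. DI21 had 159, 146 and 145 CPM in hid1 and 59.7, 65.6 and 61.4 CPM in phyB, a log2 difference of 1.27 ± 0.07. Both LEA_3 genes were higher in hid1 as well. EM6 had 532, 589 and 551 CPM in hid1 and 3113, 3344 and 4039 CPM in phyB, a log2 difference of -2.65 ± 0.18. ECP31 had 289, 344 and 351 CPM in hid1 and 1879, 2007 and 2358 CPM in phyB, a log2 difference of -2.66 ± 0.15. M10 had 134, 134 and 149 CPM in hid1 and 798, 942 and 908 CPM in phyB, a log2 difference of -2.66 ± 0.13. These 3 maturation genes were lower in every hid1 library. AT5G53260 had 1.55, 1.81 and 1.4 CPM in hid1 and 14.2, 13.6 and 14.8 CPM in phyB, a log2 difference of -3.16 ± 0.19. It was lower in hid1 too.

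At 12 h, in hid1, 2 were higher and 9 lower, with a median log2 difference of -0.21, against 7.49% and 5.91% of all genes (13.4% in either direction). COR47 had 32.3, 28.7 and 33.7 CPM in hid1 and 13.3, 13.5 and 13.3 CPM in WT, a log2 difference of 1.24 ± 0.13. M17 had 1595, 1467 and 1361 CPM in hid1 and 957, 636 and 1042 CPM in WT, a log2 difference of 0.75 ± 0.16. These were the 2 higher members, and neither overlapped WT. EM6 had 2064, 2020.5 and 1979 CPM in hid1 and 3021, 3471 and 3447 CPM in WT, a log2 difference of -0.71 ± 0.17. ECP31 had 1396, 1271 and 1409 CPM in hid1 and 2096, 2164 and 2135 CPM in WT, a log2 difference of -0.65 ± 0.15. Both lay below WT in every library. AT5G53260 had 14.3, 14.4 and 12 CPM in hid1 and 23.3, 25.7 and 22.4 CPM in WT, a log2 difference of -0.82 ± 0.13. LTI30 had 21.5, 20.8 and 23.3 CPM in hid1 and 53.2, 24.9 and 50.7 CPM in WT, a log2 difference of -0.98 ± 0.26. Both were lower in hid1. The call of LTI30 was lost without WT replicate 1 (-0.79) or 3 (-0.85). The total of 11 calls dropped to 6 without WT replicate 1 and to 7 without hid1 replicate 3. EM1, with a log2 difference of -0.50, lost its call without WT replicate 2 (-0.38) or hid1 replicate 3 (-0.41).

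In the phyB libraries labelled 12 h, 7 members were higher than in WT and 27 lower, with a median log2 difference of -0.92, against 30% and 34.2% of all genes (64.2% in either direction). ERD14 had 156, 146 and 158 CPM in phyB and 4.62, 0.456 and 2.34 CPM in WT, a log2 difference of 5.91 ± 0.25. COR47 had 72.1, 72 and 64.8 CPM in phyB and 13.3, 13.5 and 13.3 CPM in WT, a log2 difference of 2.38 ± 0.12. LTI30 had 95.3, 75 and 100.5 CPM in phyB and 53.2, 24.9 and 50.7 CPM in WT, a log2 difference of 1.07 ± 0.24. These 3 dehydrins stood above every WT library. AT2G46140 had 114, 112 and 122 CPM in phyB and 43.3, 37.4 and 37.7 CPM in WT, a log2 difference of 1.55 ± 0.14. EM1 had 961, 1091 and 931 CPM in phyB and 3174, 3791 and 2866 CPM in WT, a log2 difference of -1.72 ± 0.14. AT3G02480 had 202, 204 and 189 CPM in phyB and 478, 471 and 454 CPM in WT, a log2 difference of -1.24 ± 0.13. AT2G35300 had 1127, 1133 and 1080.3 CPM in phyB and 3464, 3763 and 3452 CPM in WT, a log2 difference of -1.68 ± 0.16. AT4G39130 had 11.1, 11.9 and 9.95 CPM in phyB and 60.7, 53.7 and 50.1 CPM in WT, a log2 difference of -2.32 ± 0.13. AT5G53260 had 4.11, 3.85 and 4.44 CPM in phyB and 23.3, 25.7 and 22.4 CPM in WT, a log2 difference of -2.52 ± 0.16. AT4G39130 is a dehydrin, AT2G35300 a LEA_1 gene and AT5G53260 a seed maturation protein gene, and none of them overlapped WT. Between the mutants at 12 h, 24 members were higher in hid1 than in phyB and 8 lower, with a median of 0.62, against 33.9% and 29.5% of all genes (63.4% in either direction). The members given next were picked in the same way. HIRD11 had 12.7, 11.1 and 11.8 CPM in hid1 and 3.07, 3.96 and 4.04 CPM in phyB, a log2 difference of 1.68 ± 0.25. AT2G35300 had 2951, 3525 and 2676 CPM in hid1 and 1127, 1133 and 1080.3 CPM in phyB, a log2 difference of 1.45 ± 0.16. AT4G39130 had 48.4, 53.9 and 44.7 CPM in hid1 and 11.1, 11.9 and 9.95 CPM in phyB, a log2 difference of 2.15 ± 0.13. All 3 were higher in hid1 with no overlap. AT5G53260 had 14.3, 14.4 and 12 CPM in hid1 and 4.11, 3.85 and 4.44 CPM in phyB, a log2 difference of 1.71 ± 0.17. ERD14 had 1.48, 1.77 and 2.12 CPM in hid1 and 156, 146 and 158 CPM in phyB, a log2 difference of -6.40 ± 0.26. The seed maturation protein gene was higher and the dehydrin lower. LTI30 had 21.5, 20.8 and 23.3 CPM in hid1 and 95.3, 75 and 100.5 CPM in phyB, a log2 difference of -2.05 ± 0.25. COR47 had 32.3, 28.7 and 33.7 CPM in hid1 and 72.1, 72 and 64.8 CPM in phyB, a log2 difference of -1.14 ± 0.11. AT2G46140 had 35.3, 45.5 and 34.8 CPM in hid1 and 114, 112 and 122 CPM in phyB, a log2 difference of -1.59 ± 0.14. These 3 were lower in every hid1 library.

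In hid1 at 48 h relative to 24 h, 12 members rose and 12 fell, with a median log2 difference of 0.06, against 31.5% and 28.4% of all genes (59.8% in either direction). In phyB 13 rose and 16 fell, with a median of -0.18, against 31% and 30.8% of all genes (61.7% in either direction), and with total counts the split was 6 and 27. Of the 35 members that fell in WT over this interval, 8 rose, 11 fell and 16 did not pass the test in hid1. Of the same 35, 13 rose, 10 fell and 12 did not pass the test in phyB. Of the 8 members that rose in WT, 4 rose and 4 did not pass the test in hid1, whereas 5 fell and 3 did not pass the test in phyB. These splits by the WT call were not counted over all genes. Whether LEA genes differ from other genes in them was therefore not tested.

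The difference in change itself was tested as an interaction. The change was higher in hid1 than in WT for 32 members and lower for 8, with a median of 2.65, against 30.5% and 32.1% of all genes (62.6% in either direction). In phyB relative to WT it was higher for 34 and lower for 7, with a median of 2.88, against 35.4% and 36.5% of all genes (71.9% in either direction). AT3G02480 changed by 1.33 ± 0.13 in hid1 and by -3.14 ± 0.14 in WT, so that the changes differed by 4.46 ± 0.19. HIRD11 changed by -1.68 ± 0.23 in phyB and by 3.16 ± 0.16 in WT, a difference of -4.83 ± 0.27. Thus the first rose in hid1 while it fell in WT, and the second fell in phyB while it rose in WT. EM1 changed by 0.80 ± 0.14 in hid1, by 0.77 ± 0.14 in phyB and by -2.21 ± 0.14 in WT, and its phyB rise lost its call under scaling by total counts (0.28). Earlier, from 12 to 24 h, 11 members rose and 28 fell in hid1 (against 30% and 28.9% of all genes, and 58.9% in either direction), while 29 rose and 5 fell in phyB (against 27.7% and 27.2%, and 54.9% in either direction).

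**Figure D5:**
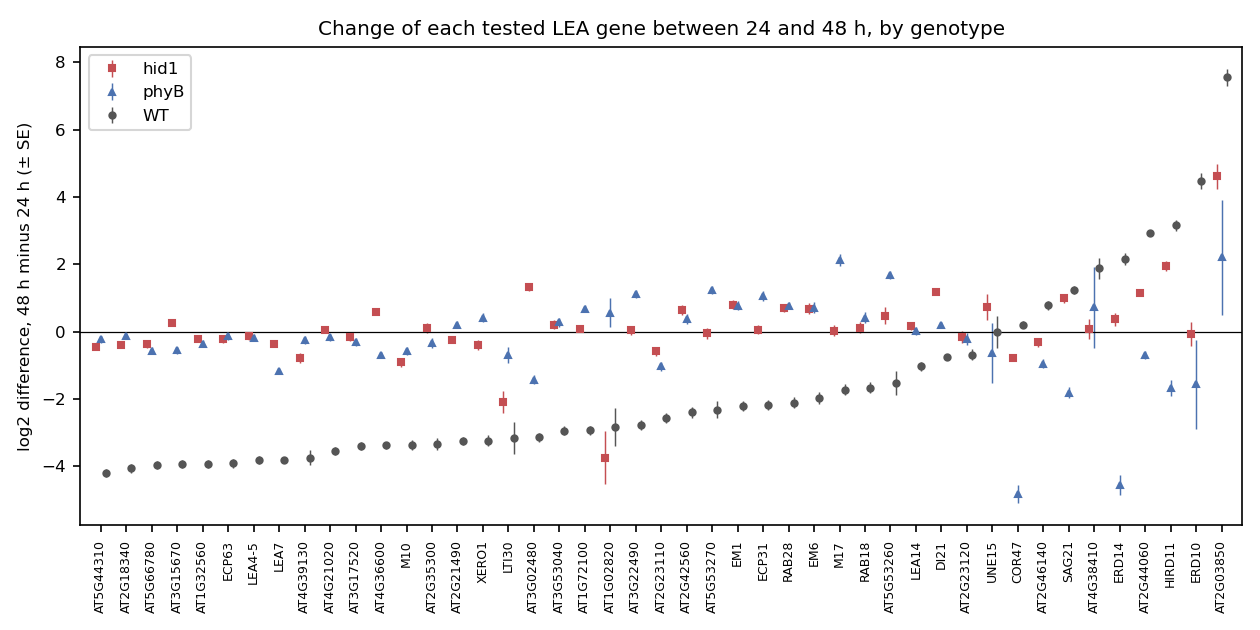
Log2 difference between 48 h and 24 h, with its standard error, for each of the 45 tested LEA genes (x axis, ordered by the WT value) in hid1 (squares), phyB (triangles) and WT (circles). WT lies below 0 for most genes, with a median of -2.56, while the medians of hid1 and phyB are 0.06 and -0.18.

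Regulators of LEA genes were read from the same libraries. Of 17 seed maturation regulators, 12 were tested. At 48 h 9 were higher and 1 lower in hid1 than in WT (median 1.03), against 36.3% and 43% of all genes. In phyB 10 were higher and 2 lower than in WT (median 2.53), against 40% and 49.4% of all genes. The list, which includes VAL1 and VAL2, was not split into activators and repressors of the programme. ABI3, a transcription factor of the seed maturation programme, was higher by 2.92 ± 0.08 in hid1 and by 3.79 ± 0.08 in phyB. ABI5, which binds ABA-responsive elements, was higher by 2.93 ± 0.07 in hid1 and by 4.05 ± 0.07 in phyB. EEL, a bZIP relative of ABI5 that acts on EM1, was higher by 1.99 ± 0.11 in hid1 and by 3.79 ± 0.12 in phyB. At 24 h neither ABI3 nor ABI5 passed the test in hid1, with log2 differences of 0.06 and 0.03. HSFA9, a seed heat shock factor, was higher by 2.11 ± 0.28 in hid1 and by 6.99 ± 0.19 in phyB at 48 h.

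Among 7 ABA response regulators, at 48 h 2 were higher and 3 lower in hid1 than in WT, against 36.3% and 43% of all genes. In phyB 4 were higher and 3 lower than in WT, against 40% and 49.4% of all genes. ABF3, an ABA-responsive factor of vegetative tissue, was lower in both mutants, with log2 differences of -1.46 in hid1 and -8.28 in phyB. OST1, an ABA-activated kinase, gave -1.71 in hid1 and -4.02 in phyB, and ABF2 gave -1.30 in hid1 and -1.82 in phyB. ABF4 was higher by 1.08 in hid1 and 4.26 in phyB. Of 4 cold response regulators only ICE1 was tested, and it was higher by 1.38 in hid1 and 1.67 in phyB. The cold-response LEA genes COR15A and COR15B held 12 and 6 counts over all 27 libraries. All 15 storage protein and oil body genes were higher in both mutants at 48 h, with medians of 2.90 in hid1 and 5.66 in phyB. Of all genes, 36.3% were higher in hid1 and 40% in phyB.

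Markers of other seed tissues moved with genotype too. All 5 endosperm markers were tested, and their summed level at 48 h was 3071 to 3228 CPM in hid1 and 14226 to 16698 CPM in phyB, against 758 to 922 CPM in WT. Most of this sum was EPR1, with means of 2545 CPM in hid1, 15308 CPM in phyB and 679 CPM in WT. At 48 h all 5 were higher in hid1 than in WT, against 36.3% of all genes. In phyB 3 were higher and 2 lower, against 40% and 49.4% of all genes. In either direction, 79.2% of all genes differed in hid1 and 89.4% in phyB, so a call alone says little about these markers. The 2 lower in phyB were EXPA2, at a mean of 0.481 CPM against 122 CPM in WT, and MAN7, at 20.3 CPM against 31.3 CPM. The 2 embryo epidermis markers summed to 479 to 558 CPM in hid1 and 127 to 137 CPM in phyB, against 1032 to 1457 CPM in WT. Of the 2, 1 was lower in hid1 and both were lower in phyB, against 43% and 49.4% of all genes. Most of that difference lay in PDF1, with means of 392 CPM in hid1, 29.1 CPM in phyB and 1105 CPM in WT. ATML1 had means of 132, 102 and 133 CPM in the same order. The 4 seed coat markers were at or near 0, with at most 0.274 CPM in any library. The part of tissue make-up in the LEA differences was not tested.

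The remaining members were barely present. AT2G03740 held 0 counts in all libraries, AT4G13230 held 2, AT2G33690 held 3, AT3G53770 held 4 and AT5G27980, of the seed maturation protein class, held 84. Several members lie beside each other as pairs (COR47 and ERD10, M17 and M10, AT3G22490 and ECP31, LTI30 and XERO1, AT5G53260 and AT5G53270, AT2G23110 and AT2G23120). UNE15 shares 0.285% of its exonic stretches of 100 bases with another place in the genome. Of the tested members, RAB18, LEA7, AT2G18340, AT2G23120, AT3G22490 and UNE15 overlap a gene on the opposite strand, and without strand the reads of such a pair cannot be told apart. SAG21 and UNE15 also overlap a gene on their own strand, AT4G04125 and AT4G06110, where strand would not separate the reads.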

How the data were processed

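Poly(A) RNA of whole seeds was sequenced as read pairs of 150 bp from 1 μg of RNA per library, per the labels' protocols. The authors deposited raw read counts per gene and a table of FPKM per group. The submitters' processing notes name fastp, HISAT2 2.1.0, SAMtools 1.6 and the TAIR10 build; the counting tool and its strand setting are not stated. The count test was edgeR 4.0.16, with limma 3.58.1 under R 4.3.3, after filterByExpr, with TMM scaling, 1 quasi-likelihood fit of 27 libraries with 9 group terms and 18 residual degrees of freedom, and Benjamini-Hochberg adjustment over 20465 genes. CPM use TMM library sizes. The test was checked on simulated data in which few genes differed between hid1 and WT at 48 h, unlike the real libraries. That check does not cover scaling when most genes differ. Figures were drawn with Python 3.11.15 and matplotlib 3.10.9.

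Values per library are given for EM1, EM6, RAB18, M17, M10, ECP63 and ECP31, and for up to 4 rises and 4 falls per comparison where one group reached 10 CPM and replicates did not overlap; other values were chosen after they were seen. The members, classes and gene lists were chosen with earlier results of these data known. Alternatives were RLE and total-count scaling, no filter, DESeq2 1.42.0, a replicate block, leaving out libraries, and the share without the member with the most counts. Counting intervals are exact at 95% and, like the floor of 3 counts per group, cover counting error only, since the labels name no molecular identifiers. Promoter windows and overlaps come from the RefSeq annotation of TAIR10.1.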

Additional observations from a re-analysis of the deposited data

Results flagged for a closer look

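By the interaction test, the change between 24 and 48 h differed between hid1 and WT for 40 of 45 tested members, against 62.6% of all genes. Between phyB and WT it differed for 41 of 45, against 71.9% of all genes. The values below are the mutant's log2 change minus that of WT. For genes that fell in WT, the difference in hid1 was 4.46 for AT3G02480, 3.7 for ECP63, 3.01 for EM1, 2.65 for EM6, 2.45 for M10, 2.24 for ECP31, 1.78 for RAB18 and 1.76 for M17. In phyB it was 3.85 for M17, 3.78 for ECP63, 3.23 for ECP31, 2.98 for EM1, 2.78 for M10, 2.69 for EM6, 2.07 for RAB18 and 1.71 for AT3G02480. The dehydrins went both ways. Of 10 tested, the difference was higher for 4 and lower for 5 in hid1 (median 0.05), against 30.5% and 32.1% of all genes. In phyB it was higher for 5 and lower for 4 (median 0.45), against 35.4% and 36.5% of all genes. Among the lower ones, in hid1 it was -4.54 for ERD10, -1.2 for HIRD11 and -0.98 for COR47. In phyB it was -6.04 for ERD10, -5.03 for COR47 and -4.83 for HIRD11, with ERD10 resting on 3 counts over the phyB libraries at 48 h. The phyB values rest on the libraries labelled 24 h.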

How the results depend on the processing

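Counts of called members stayed within 1.5 times the reported count under every alternative run, except for hid1 relative to WT at 12 h, where leaving out 1 library gave 6 to 12 calls against 11. Scaling by total counts turned 7 member values: DI21 in phyB relative to WT at 48 h was -0.29, DI21 in phyB at 48 h relative to 24 h was -0.29, RAB18, XERO1 and AT2G42560 in phyB at 48 h relative to 24 h were -0.081, -0.08 and -0.11, and AT1G32560 and AT5G66780 in hid1 relative to phyB at 48 h were 0.19 and 0.27. A further 18 calls were lost under this scaling. Among them were EM1 and EM6 in phyB at 48 h relative to 24 h, at 0.28 and 0.22. AT2G23110, AT2G23120, AT2G35300, AT4G21020 and AT5G44310 lost theirs in hid1 relative to phyB at 48 h. The cause of these changes was not tested. Without M17, the member with the most counts, the family's mean share was 3.42% in hid1, 3.17% in phyB and 4.26% in WT at 12 h, then 2.21%, 5.32% and 1.66% at 24 h, with 4.24% in phyB and 0.387% in WT at 48 h.

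The labels number the replicates in every group. Over 108 same-numbered pairs from different groups the correlation of deviations ran from -0.163 to 0.333, with a median of 0.0205, and 20.4% were over 0.1. For pairs with different numbers the median was -0.00831. These values do not settle whether the numbers pair any samples, and the main fit treats them as unpaired. With the replicate block, calls numbered 43 for hid1 and 45 for phyB relative to WT at 48 h, and 13 for hid1 at 12 h. Genes with few counts, among them AT4G38410 and UNE15, are limited by depth.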
